A study of Rattus norvegicus with 12 samples.

Results

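The libraries compared here were 2 from fibro-adipogenic progenitors of the rat soleus after hindlimb suspension for 7 days and 2 from the same cell type of control rats without suspension, all taken at day 0, before adipogenic induction. They are 4 of the 12 libraries of the series and were selected by their labels, with earlier results of these data already known. Of the 32622 Ensembl rat gene identifiers in the deposited count table, 13215 had enough reads to be tested, and all of these are described. The cells were primary cultures grown in DMEM with fetal bovine serum until they were nearly confluent, per the labels' protocols, so every group had spent time in culture away from the muscle. The cells of suspended rats differ from those of control rats in the labels only by 7 days of suspension, a treatment in which the hind legs bear no weight. The labels give neither the strain, age or sex of the rats nor whether animals were pooled.

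Fibro-adipogenic progenitors are resident mesenchymal cells of skeletal muscle that lie between the fibres. In healthy muscle they supply matrix and signals that support regeneration by muscle stem cells, and they can turn into adipocytes or matrix-producing fibroblasts. The soleus is a postural muscle that loses mass quickly when it is unloaded. Poly(A) RNA from these cultures reports on the state in which the cells stood before insulin, dexamethasone and 3-isobutyl-1-methylxanthine were added to induce fat cell formation.

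The count table does not pair its identifiers with gene names, and the rat gene table used here lists no Ensembl identifiers, so that 0 of the 32622 could be named. The 51 lists of pathway genes and cell type markers drawn up for this comparison were therefore not used, and the labelled cell type could not be set against its markers. Genes are described below by how much, how often and where else they differed, and 4 identifiers are printed. In a culture, fewer cells of a type and less RNA per cell cannot be told apart in such counts.

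The 7-day libraries held 15789034 and 15551746 counts and the control libraries 18757578 and 17929398. In each of the 4, a read was present for 15083 to 15161 genes. Even numbers made up 68.7% to 70.0% of the counts between 1 and 20, which leaves it unclear whether 1 count is 1 read; the counts of changed genes were repeated on halved counts. Over 9866 genes with a mean of at least 5 CPM (counts scaled to a common library size), the replicates of the 7-day cells differed by a median of 0.121 on the log2 scale and those of the control cells by 0.093. The group means differed by a median of 0.155. A difference of at least 2-fold on this scale separated the replicates in 6 genes of the 7-day cells and in 5 of the control cells, and the group means in 189 genes. The replicate values compare single libraries and the group values compare means of 2 libraries, so they are not directly comparable. The replicates are numbered in the labels but not said to come from separate animals or cultures, so a p-value is set against a spread that may be technical only.

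The comparison asks which genes stood at another level in cells of unloaded muscle before induction began. By the quasi-likelihood test of edgeR at an adjusted p under 0.05, 3042 genes differed, 23.0% of those tested. Of these, 1546 (11.7%) were higher in 7-day cells and 1496 (11.3%) were lower. Most differences were small: the median log2 difference was 0.48 over the higher genes, -0.42 over the lower genes and 0.00 over all genes tested. At least 2-fold differences were found in 340 higher genes (2.57%) and 206 lower genes (1.56%). In all 340 and in 205 of the 206, both 7-day libraries lay on the same side of both control libraries; this lack of overlap was also seen in 55.5% of all genes tested.

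**Figure D1:**
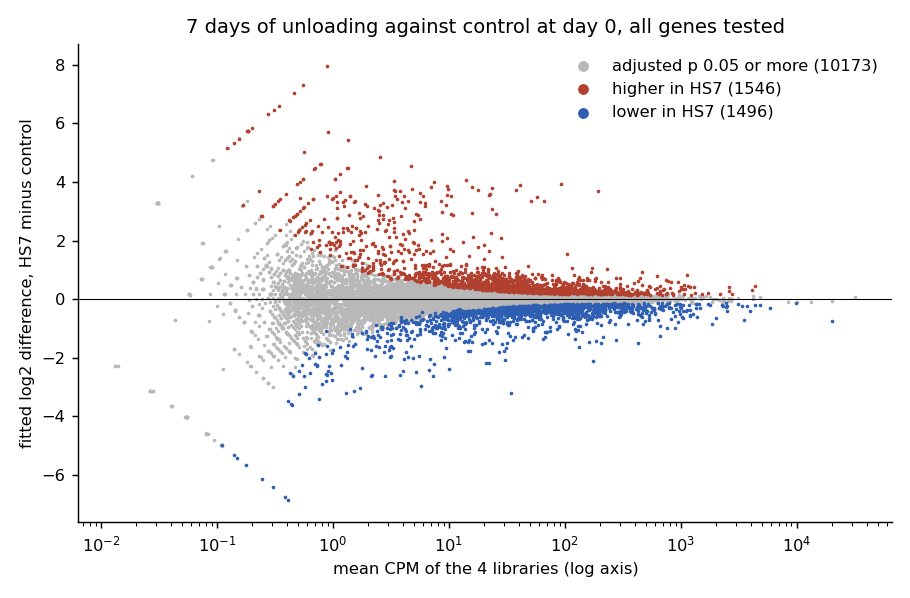
Fitted log2 difference of 7-day (HS7) minus control cells at day 0 against the mean CPM of the 4 libraries, 1 point a gene. The 1546 higher and 1496 lower genes spread widest at low CPM: under 1 CPM all 82 rises and 41 falls were at least 2-fold, and at 500 CPM or more 0 rises and 1 fall were.

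Large rises outnumbered large falls. Among the genes past the threshold, 197 stood at least 4-fold higher in 7-day cells and 56 at least 4-fold lower. At least 8-fold, these numbers were 110 and 18. The median log2 difference of the 110 was 3.58, or 3.49 when 14 genes without a read in either control library were set to the bound that their 0 reads allow. Of the 18, 8 had no read in either 7-day library, and the median was -3.60, or -3.09 with these 8 at their bound. The genes with large differences drew few reads. Over the 110, the median of the group means was 2.58 CPM in 7-day cells and 0.219 CPM in control cells. Of the 110, 41 reached 5 CPM in 7-day cells. When a gene needed 1 CPM in 4 or more libraries to be tested, 68 genes stood at least 8-fold higher. On halved counts 83 genes stood at least 8-fold higher and 39 at least 4-fold lower, so the number of large differences depended on how reads were counted.

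Few genes met a strict rule of presence in 1 group and absence in the other, and their number depends on the rule and on depth. Among the genes past the threshold, 14 higher genes had no read in either control library. Likewise, 8 lower genes had none in either 7-day library. Over the whole table, 4 genes had at least 10 reads in each 7-day library and none in either control library, which allows up to 0.0813 CPM in control cells. They stood at 0.614 to 1.76 CPM in 7-day cells, and the highest was at least 21.6-fold higher than in control cells, taking 1 count as 1 read. In the other direction, 2 genes had at least 10 reads in each control library and none in 7-day cells. These 2 had 0 reads in 7-day cells, which allows up to 0.092 CPM, against 0.764 and 0.82 CPM in control cells.

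How often a difference was found followed how many reads a gene drew. Of 1412 genes with a mean under 1 CPM over the 4 libraries 8.71% passed the threshold, and of 4910 genes at 20 to 100 CPM 25.8%. Of 261 genes at 500 CPM or more 54.0% passed. The median standard error of the log2 difference was 0.748, 0.093 and 0.049 in these classes, and the median size of a difference that passed was 2.83, 0.36 and 0.30. A gene under 1 CPM passed only with a log2 difference of at least 1.10, while one at 500 CPM or more passed with 0.12. Smaller differences of genes with few reads were thus not detectable at this depth.

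The direction of the differences also varied with the reads. Higher genes outnumbered lower ones 82 to 41 under 1 CPM and 196 to 93 at 1 to 5 CPM. At 100 to 500 CPM 273 genes were higher and 366 lower, and at 500 CPM or more 53 were higher and 88 lower. The excess of rises below 5 CPM was also present with libraries scaled to their total count (86 to 40 and 207 to 80), but the excess of falls above 100 CPM was not: there 388 genes were higher and 291 lower at 100 to 500 CPM, and 76 and 79 at 500 CPM or more. The median log2 difference over all genes was 0.044 with this scaling and -0.003 with TMM. Of the genes past the threshold, 62.8% were higher with this scaling, against 50.8% with TMM.

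**Figure D2:**
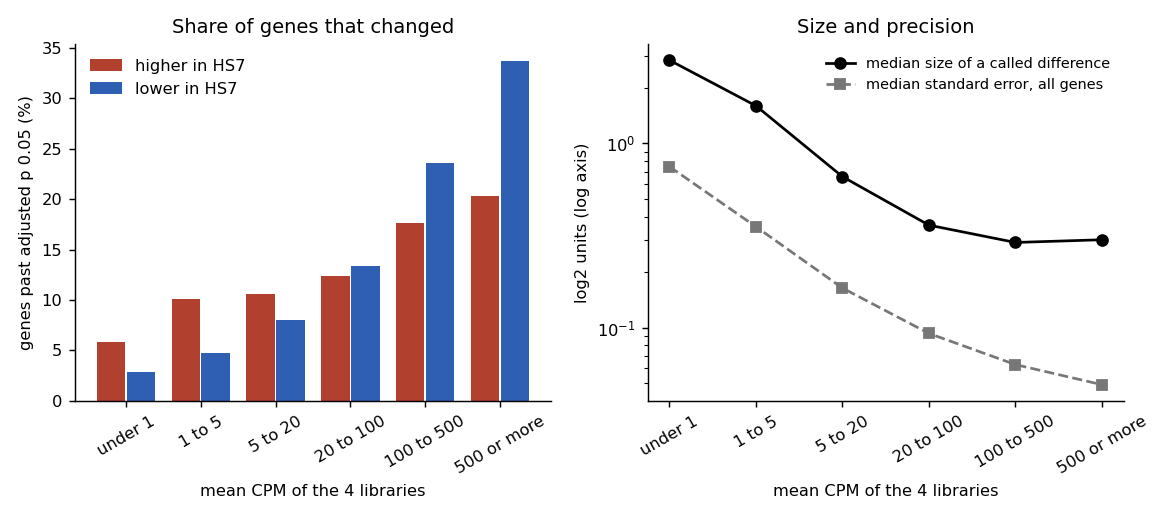
Left, share of genes past an adjusted p of 0.05 in 6 classes of mean CPM, as bars for genes higher and lower in 7-day (HS7) cells. Right, on a log axis, the median size of the differences that passed and the median standard error of all genes in the class. Both directions together, the share rises from 8.71% under 1 CPM to 54.0% at 500 CPM or more while the standard error falls to 0.049.

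Among the genes that drew the most reads, differences often passed the threshold but stayed under 2-fold. CPM is not divided by gene length here, so it orders genes by their reads and not by their transcripts. Of the 10 genes with the most reads over the 4 libraries, 4 were lower in 7-day cells, none was higher and 6 did not pass. They took 12.7% ± 0.596 of the counts in 7-day cells and 13.7% ± 0.237 in control cells (SD, n = 2 each). Among the top 100, 20 were higher and 40 lower, none by 2-fold, with fitted log2 differences between -0.86 and 0.82. With scaling to the total count these numbers were 28 and 36, and among the top 10 they were 2 and 3. In the main fit 23.0% of all genes tested passed, and 54.0% of those at 500 CPM or more.

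The second gene by reads moved most among the top 10. It had 13994 and 16458 CPM in the 7-day libraries, against 25951 and 24884 CPM in the control libraries. Both 7-day values were far below both control values, with a log2 difference of -0.74 (SE 0.045, adjusted p = 1.21e-15). It stood at 17801 and 17104 CPM in cells of rats suspended for 14 days. At day 3 of induction it had 14183 and 14681 CPM in 7-day cells, against 17900 and 17486 CPM in control cells, a log2 difference of -0.29 (adjusted p = 3.99e-06).

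The shares of all reads that these genes took were as follows. The 1546 higher genes took 17.3% and 17.0% of the counts in the 7-day libraries, against 13.0% and 12.9% in the control libraries. The 1496 lower genes took 22.4% and 23.0% in 7-day libraries, against 28.9% and 28.8% in control libraries. The directions of these shares are fixed by the choice of the genes. The 340 genes at least 2-fold higher took 0.437% ± 0.00432 of the counts in 7-day cells and 0.109% ± 0.00165 in control cells, and the 206 at least 2-fold lower took 0.300% ± 0.000234 and 0.750% ± 0.00403 (SD, n = 2 each).

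ENSRNOG00000005798 had the largest fitted rise among genes that reached 5 CPM in the higher group and whose groups did not overlap. It had 11.2 and 7.08 CPM in the 7-day libraries, from 184 and 114 counts, against 0.106 and 0.666 CPM in the control libraries, from 2 and 12 counts. Both 7-day libraries were well above both control libraries, although the control libraries differed from each other and gave few reads. The ratio of the means was 23.6, and the fitted log2 difference 4.56 (SE 0.46, adjusted p = 5.20e-10). The size depended on the control library: it was 3.77 without control replicate 1 and 6.33 without control replicate 2, both past the threshold. At day 3 the gene had 5.71 and 5.04 CPM in 7-day cells, against 0.392 and 0.473 CPM in control cells (log2 difference 3.61, SE 0.48, adjusted p = 2.57e-07). After 14 days of suspension it had 0.317 and 0.947 CPM at day 0, lower than in 7-day cells (log2 difference -3.81, SE 0.41, adjusted p = 6.62e-09).

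ENSRNOG00000003336 had the second largest rise. Its level was 26.1 and 27.0 CPM in 7-day libraries, against 2.01 and 1.11 CPM in control libraries, and the 7-day libraries nearly coincided. The ratio of the means was 17.0, with a log2 difference of 4.07 (SE 0.25, adjusted p = 9.00e-16). At day 3 it had 8.89 and 11.8 CPM in 7-day cells, against 0.914 and 0.828 CPM in control cells (log2 difference 3.56, SE 0.30, adjusted p = 4.35e-12). Cells of rats suspended for 14 days had 2.11 and 3.27 CPM at day 0, which was lower than in 7-day cells (log2 difference -3.29, SE 0.22, adjusted p = 4.18e-14). Both of these identifiers were thus high in 7-day cells on both days of culture and low in 14-day cells at day 0. The test against 14-day cells shares the 7-day libraries on which they were picked, so a lower 14-day level is favoured by the choice.

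ENSRNOG00000023548 had the largest fall. It had 7.21 and 6.34 CPM in 7-day libraries, against 67.7 and 56.7 CPM in control libraries, with a wide gap between the groups. The mean in control cells was 9.18 times that in 7-day cells, and the log2 difference -3.20 (SE 0.12, adjusted p = 3.13e-22). After 14 days of suspension it had 0.58 and 1.09 CPM at day 0, lower again than in 7-day cells (log2 difference -2.99, SE 0.23, adjusted p = 2.30e-12). At day 3 both groups were high, with 68.0 and 67.7 CPM in 7-day cells, slightly above 58.6 and 54.8 CPM in control cells (log2 difference 0.26, SE 0.09, adjusted p = 0.0432). The difference between the groups changed by 3.46 log2 units from day 0 to day 3 (SE 0.15, adjusted p = 1.33e-19). This test shares the day 0 libraries on which the identifier was picked, so a move towards 0 is favoured by the choice.

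ENSRNOG00000051993 had the next largest fall. It had 1.21 and 1.37 CPM in 7-day libraries, against 8.70 and 11.8 CPM in control libraries (log2 difference -2.98, SE 0.32, adjusted p = 3.81e-09). At day 3 its level was low in both groups, with 0.97 and 0.84 CPM in 7-day cells and 1.70 and 2.13 CPM in control cells (log2 difference -1.08, SE 0.41, adjusted p = 0.0737). The difference between 7-day and control cells changed by 1.91 log2 units between the days (SE 0.54, adjusted p = 0.0167). Here too a move towards 0 is favoured by the choice of the identifier at day 0. In 14-day cells at day 0 it had 2.85 and 1.61 CPM, and a difference from 7-day cells was not shown (log2 difference 0.78, SE 0.37, adjusted p = 0.191).

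**Figure D3:**
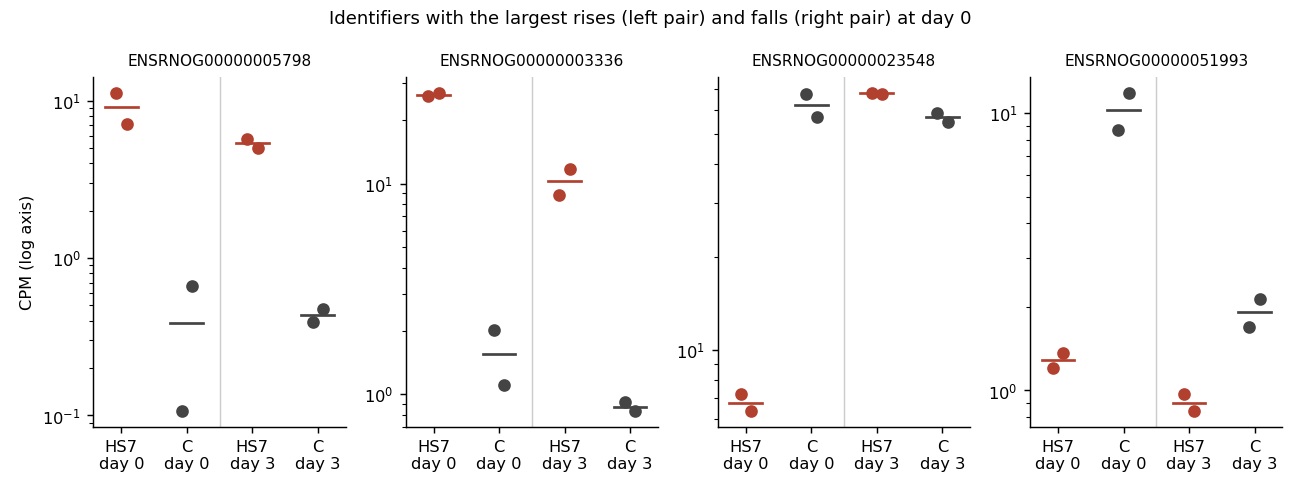
CPM of the 4 printed identifiers on log axes, 1 point a library and a line at the mean of 2, for 7-day (HS7) and control (C) cells at day 0 and day 3. The rises of ENSRNOG00000005798 and ENSRNOG00000003336 are present on both days, whereas ENSRNOG00000023548 stands at 6.77 CPM in 7-day cells at day 0 and at 67.8 CPM at day 3.

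The same contrast at day 3 has no library in common with the day 0 difference, although all 12 libraries set the filter, the scaling and the spread of both. The labels do not say whether the libraries of day 0 and day 3 came from the same rats or cultures. A difference seen on both days is therefore not an independent repeat, and suspension cannot be told apart from a difference between rats or cultures. It shows which differences were still there once induction had run for 3 days. No cells were kept to day 3 without induction, so induction and time in culture cannot be told apart. At day 3, 892 genes were higher in 7-day than in control cells (6.75% of those tested) and 982 were lower (7.43%). Of the 1546 genes higher at day 0, 447 were higher at day 3 (28.9%), 60 were lower and 1039 did not pass. Of the 1496 genes lower at day 0, 393 were lower at day 3 (26.3%), 48 were higher and 1055 did not pass. The 447 were 50.1% of the genes higher at day 3 and the 393 were 40.0% of those lower. Of the 10173 genes that did not pass at day 0, 397 (3.90%) were higher and 529 (5.20%) lower at day 3. The number higher at day 3 fell to 544 without control replicate 1 and to 568 without 7-day replicate 2 of that day.

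The rises were followed to day 3 by their size at day 0. Of the 110 genes at least 8-fold higher at day 0, 78 were higher at day 3 (70.9%) and 2 lower, with a median log2 difference of 3.49 there. The shares did not follow size within the 110: 19 of the 34 rises of 16-fold or more were higher at day 3 (55.9%), and 59 of the 76 rises of 8-fold to 16-fold were (77.6%). Of the 34, 14 had no read in either control library at day 0, so that their fitted size has no bound. Of the 87 genes 4-fold to 8-fold higher, 58 were higher at day 3 (66.7%), with a median of 2.44. Of the 143 genes 2-fold to 4-fold higher, 62 were (43.4%), with a median of 0.73. Among the 1206 rises under 2-fold, 249 were higher at day 3 (20.6%), and the median there was 0.08. The classes also differ in reads, and the difference between their shares was not tested.

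The falls were followed in the same way. Of the 150 genes 2-fold to 4-fold lower at day 0, 61 were lower at day 3 (40.7%), with a median log2 difference of -0.59. Of the 56 genes at least 4-fold lower, 19 were lower at day 3 (33.9%) and 1 was higher, and their median at day 3 was -0.54, against -2.60 at day 0. The median level over these 56 genes, taken in each library by itself, was 1.16 and 1.02 CPM in 7-day cells at day 3. In control cells it was 1.63 and 1.92 CPM. At day 0 this median was 0.273 and 0.248 CPM in 7-day cells, against 1.75 and 1.75 CPM in control cells. The reads of the 56 genes together, which weigh the genes with the most reads, gave another picture at day 3: they were 0.0596% and 0.059% of the counts in 7-day libraries, against 0.426% and 0.428% in control libraries. At day 0 they were 0.0135% and 0.0134% in 7-day libraries, against 0.0651% and 0.0621% in control libraries. At day 3 alone, 2.04% of the genes tested were at least 2-fold higher and 1.91% at least 2-fold lower. In 180 genes the rise was at least 2-fold on both days, and in 49 genes the fall was.

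**Figure D4:**
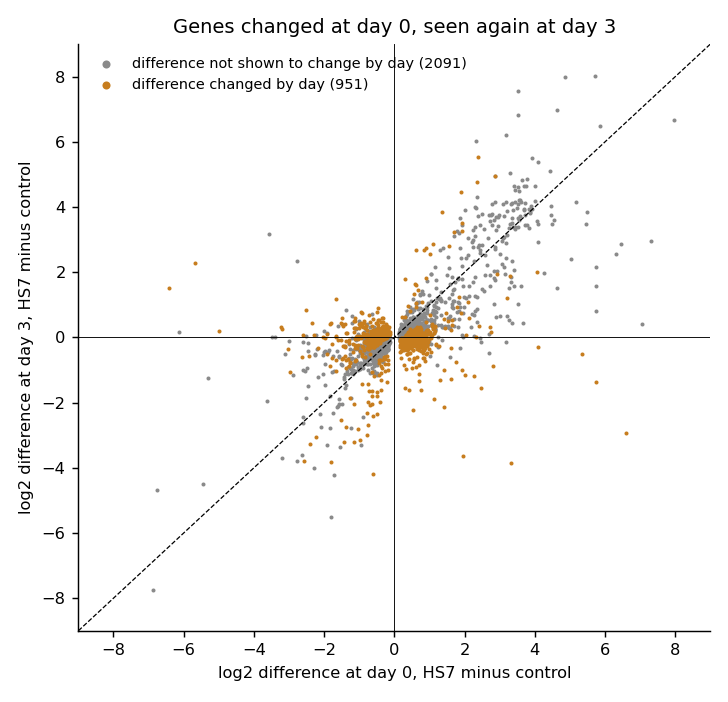
Log2 difference of 7-day (HS7) minus control cells at day 3 against that at day 0, for the 3042 genes that passed at day 0; the dashed line marks equal differences. Orange points passed the test of a difference between the days. The median distance from the dashed line was -1.47 for the 34 rises of 16-fold or more and 0.05 for the 76 rises of 8-fold to 16-fold, and for the 206 falls of at least 2-fold it was 0.97.

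Whether a difference changed between the days was tested in the same fit as the interaction of treatment and day. The difference changed in 10.4% of the genes tested: it was more positive at day 3 than at day 0 in 621 (4.70%) and more negative in 750 (5.68%). Of the 1546 genes higher at day 0, the difference was more negative at day 3 in 426 (27.6%) and more positive in 27. Of the 1496 genes lower at day 0 it was more positive at day 3 in 447 (29.9%) and more negative in 51. The test shares the day 0 libraries on which these genes were chosen, so a move towards 0 is favoured by the choice. Of the 110 rises of at least 8-fold, 8 became smaller by this test and none larger, and the median change was -0.09 on the log2 scale. It was -1.47 over the 34 rises of 16-fold or more, whose fitted size partly has no bound, and 0.05 over the 76 rises of 8-fold to 16-fold. Of the 206 falls of at least 2-fold, 74 became smaller (35.9%) and 11 larger, with a median change of 0.97.

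Genes that passed at day 0 but not at day 3 fall into those whose difference changed and those for which no change was shown. Among the 1546 higher genes, 333 did not pass at day 3 and had a difference that moved towards 0, while 706 did not pass at day 3 and did not pass the interaction either. Among the 1496 lower genes these numbers were 339 and 716. For the 706 and the 716 the data do not show that the difference was lost. All 60 genes that were higher at day 0 and lower at day 3, and all 48 with the opposite course, passed the interaction.

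The length of suspension was tested directly at day 0 by setting 14-day against 7-day cells. Over all genes 723 were higher (5.47%) and 827 lower (6.26%) after 14 days than after 7 days. These counts rest on both 14-day libraries: 354 and 508 were found without replicate 1 and 407 and 480 without replicate 2. With scaling to the total count 396 were higher and 1523 lower, but with DESeq2 size factors 870 were higher and 761 lower. Which direction was more frequent thus depended on the scaling. The genes were chosen on the same 7-day libraries, so a 14-day level nearer to control is favoured by the choice.

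Most of the large rises were lower again in 14-day cells. Of the 110 genes at least 8-fold higher in 7-day than in control cells, 91 were lower after 14 than after 7 days (82.7%) and none was higher, with a median log2 difference of -3.53. Without 1 library of the comparison the number was between 68 and 93. The median level over the 110, taken in each library by itself, was 0.369 and 0.284 CPM in 14-day libraries, against 2.67 and 2.61 CPM in 7-day libraries. The 110 genes together took 0.0126% and 0.0123% of the counts in the 14-day libraries and 0.176% and 0.170% in the 7-day libraries. At day 3 they took 0.140% and 0.143% in 7-day libraries, against 0.0133% and 0.0138% in control libraries.

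Over smaller rises the counts were as follows. Of the 340 genes at least 2-fold higher, 198 were lower after 14 than after 7 days (58.2%) and 6 higher; of the 1206 rises under 2-fold, 291 were lower (24.1%) and 81 higher. Among the 340, 150 were both higher than control at day 3 and lower in 14-day than in 7-day cells at day 0. Another 48 were higher at day 3 without being lower in 14-day cells, 48 were lower in 14-day cells without being higher at day 3, and 94 were neither.

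The falls of at least 2-fold were set against 14-day cells in the same way. Of the 206 genes at least 2-fold lower in 7-day than in control cells, 34 were lower after 14 than after 7 days (16.5%), 25 were higher (12.1%) and 147 did not pass. The number higher was 15 without 14-day replicate 2 and 40 without 7-day replicate 2. The median log2 difference of 14-day minus 7-day cells was 0.06. Their median level, taken in each library by itself, was 1.90 and 1.85 CPM in 14-day libraries and 2.18 and 2.14 CPM in 7-day libraries. In control libraries it was 6.15 and 6.38 CPM. The 206 were chosen as high in these control libraries, so a 14-day level below control is favoured by the choice.

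**Figure D5:**
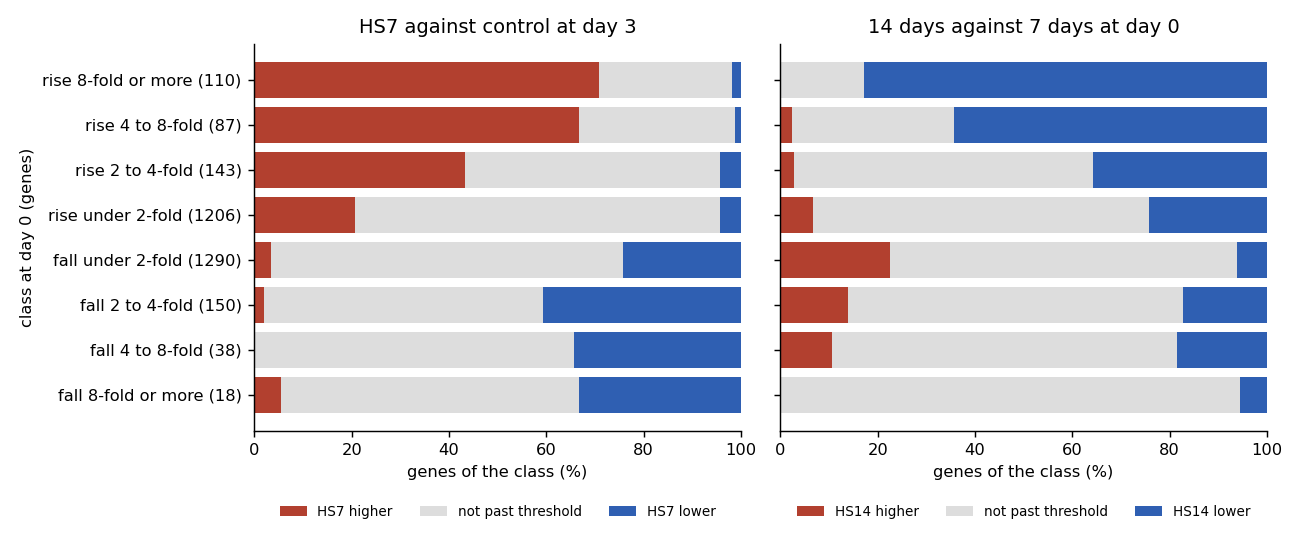
Genes that passed at day 0, grouped by the size of their difference between 7-day (HS7) and control cells, with the number in each group in parentheses. Bars give the percentage higher, not past the threshold and lower in 7-day against control cells at day 3 (left) and in 14-day (HS14) against 7-day cells at day 0 (right). Of rises of 8-fold or more, 70.9% were higher at day 3 and 82.7% were lower in 14-day cells. Falls of 8-fold or more passed in 14-day against 7-day cells in 5.56% (1 of 18). Of these 18, 12 had at most 3 reads over both 7-day libraries. A further fall could thus hardly be detected, and the shares of rises and falls cannot be compared.

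How these genes move with induction was read in the 14-day libraries. Their levels do not enter the difference of 7-day minus control cells, but they share its fit: the filter, the scaling and the estimate of spread came from all 12 libraries. In 14-day cells 3662 genes were higher at day 3 than at day 0 (27.7%) and 3714 were lower (28.1%). Of the 1546 genes higher in 7-day cells at day 0, 445 were higher at day 3 in 14-day cells (28.8%) and 590 lower (38.2%). Of the 1496 lower genes, 582 were higher (38.9%) and 527 lower (35.2%). Genes that did not pass at day 0 gave 25.9% and 25.5%. They drew fewer reads, with a median of 16.9 CPM in 7-day cells, against 34.6 CPM for the higher and 43.7 CPM for the lower genes. Whether the shares differ for genes with like numbers of reads was not tested. Among the 206 falls of at least 2-fold, 93 were higher at day 3 in 14-day cells (45.1%) and 61 lower (29.6%), with a median log2 change of 0.51. Among the 340 rises of at least 2-fold, 87 were higher (25.6%) and 76 lower (22.4%), with a median of 0.14, and in the 14-day libraries at day 0 the median of their levels was 1.06 and 1.09 CPM.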

How the data were processed

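The authors deposited raw counts per Ensembl rat gene identifier in 12 columns; per the submitters' processing notes, the tools were FastQC 0.11.9, STAR 2.7, featureCounts 1.6.4 and DESeq2, with build Rnor_6.0. Not given in the sources used here: what each tool did, whether strand was used and which annotation was counted, so genes that overlap or have near-identical copies may share reads. Per the labels, a stranded mRNA kit was used and reads had 51 bp. No row or column was left out.

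Low genes were removed with filterByExpr (edgeR 4.0.16, R 4.3.3). Libraries were scaled by TMM and fitted with 6 group means over all 12 libraries by glmQLFit (6 residual degrees of freedom). Contrasts used glmQLFTest, two-sided, with Benjamini-Hochberg adjustment over 13215 genes, and every adjusted p outside the alternatives comes from this test. A standard error is the size of the log2 difference over the root of its F. CPM is on TMM-scaled libraries. A group with 0 reads allows 3 counts over the group (counting error only). The fit was also run on counts simulated with its own estimates of spread, which cannot show whether that spread is technical only. Without gene symbols, the rule names the 2 largest fitted rises and falls with an adjusted p under 0.05, no overlap and at least 5 CPM in the higher group. The comparison, lists and rule were chosen with earlier results of these data known. Alternatives were other scalings, filters, DESeq2 1.42.0, fewer libraries, halved counts and a replicate block.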

Additional observations from a re-analysis of the deposited data

Results flagged for a closer look

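The difference between 7-day and control cells changed with the day of culture, by the interaction test of edgeR: it was more positive at day 3 than at day 0 in 621 genes and more negative in 750. Of the printed identifiers, ENSRNOG00000023548 had a log2 difference that was 3.46 higher at day 3 than at day 0 (SE 0.15, adjusted p = 1.33e-19). It stood at 67.8 ± 0.219 CPM in 7-day cells and 56.7 ± 2.66 CPM in control cells at day 3, and at 6.77 ± 0.621 CPM in 7-day cells and 62.2 ± 7.75 CPM in control cells at day 0 (SD, n = 2 each). For ENSRNOG00000051993 the log2 difference was 1.91 higher at day 3 than at day 0 (SE 0.54, adjusted p = 0.0167). Its levels were 0.905 ± 0.0918 CPM in 7-day cells and 1.91 ± 0.305 CPM in control cells at day 3, and 1.29 ± 0.109 CPM in 7-day cells and 10.2 ± 2.17 CPM in control cells at day 0 (SD, n = 2 each). The printed identifiers were picked on the day 0 libraries, which this test shares, so a move towards 0 is favoured by the choice. A change between the days was not shown for ENSRNOG00000005798 (adjusted p = 0.539) or ENSRNOG00000003336 (adjusted p = 0.562), both of which were higher in 7-day cells on both days. With 2 libraries a group, no library can be called an outlier.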

How the results depend on the processing

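Of 431 values recomputed under the alternatives, 420 were kept. A log2 difference had to keep its direction and its side of the threshold, and a count to stay within 1.5 times the reported count. Counts have no direction, so only the 56 values of the 4 identifiers could reverse, and none did. The balance of higher to lower genes at day 0 depended on the alternative. It was 1546 to 1496 in the main fit and 1977 to 1173 with total count scaling. With DESeq2 size factors in edgeR it was 1463 to 1568, and with DESeq2 1254 to 1361. Counts of genes that differed between 7-day and control cells at day 0 ran from 1252 to 1977 higher and from 1150 to 1568 lower over the other scalings, filters, tools, fits and halved counts. Leaving out 1 library gave 1066 to 1408 higher and 1067 to 1543 lower; a group left with 1 library was assumed to vary like the others. In each of 5 alternatives (both other scalings, DESeq2, halved counts, replicate block) 1242 of the 1546 higher and 1135 of the 1496 lower genes passed with the same sign. With scaling to the total count, 14-day against 7-day cells gave 396 higher and 1523 lower genes, and with DESeq2 size factors 870 and 761. The cause was not tested. The filter of 1 CPM in 4 libraries left 68 genes at least 8-fold higher. It removes genes with few reads and, with 2 libraries a group, also genes that reach 1 CPM in a single group only. How much each adds to the drop was not tested. Leaving out 1 library gave 544 to 783 genes higher at day 3, and 354 to 900 higher and 480 to 795 lower in 14-day against 7-day cells. It also gave 15 to 40 genes among the 2-fold falls that were higher in 14-day than in 7-day cells. The 4 identifiers passed in all 14 alternatives each, with log2 differences of 3.77 to 6.33, 3.71 to 4.58, -3.32 to -3.05 and -3.17 to -2.75 and adjusted p of at most 4.02e-07, 9.14e-12, 1.45e-13 and 2.04e-06.

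With the replicate number as a block, 1470 genes were higher and 1410 lower, and the block moved no count of the other comparisons by over 1.5 times. Same-numbered 7-day and control libraries deviated with r = -0.107 over genes, and with the control numbers crossed, a setting chosen after seeing the data, 1546 were higher and 1486 lower. The tests of gene lists were not run, as the identifiers have no symbols here. Depth limits small differences: under 1 CPM no log2 difference below 1.10 passed.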
